A study of Homo sapiens with 6 samples.

Results

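The genes described here are 10 brakes on cell division: *BTG1*, *BTG2*, *BTG3*, *TOB1* and *TOB2* of the BTG/TOB family, the cyclin-dependent kinase (CDK) inhibitors *CDKN1A* and *CDKN1B*, the stress genes *GADD45A* and *GADD45B*, and the transcription factor gene *FOXO3*. They were chosen by symbol, with earlier results of these data known. Each symbol was matched to its Ensembl identifier in the deposited table of 58288 genes, and all 10 were found. K562 is a human erythroleukemic cell line, used here as clones that stably expressed 3xFLAG-2KR-Myb-HA or 3xFLAG-ANAA-Myb-HA under 200 µg/ml G418. In 2KR-MYB the lysines that receive SUMO are replaced by arginine, and in ANAA-MYB the motif that binds SUMO is mutated. All libraries, in both groups, came from cells that had received siRNA si2992 against endogenous MYB 24 h earlier, and the rescue constructs lack the part of the transcript that this siRNA targets. There were 3 libraries of the 2KR-MYB rescue and 3 of the ANAA-MYB rescue. Each rescue was 1 single cell clone, so the MYB mutant and the clone cannot be told apart. Columns for control, knockdown and other rescues were not used here, and no level below is set against them.

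BTG and TOB proteins share an amino-terminal domain that holds the deadenylases CNOT7 and CNOT8 of the CCR4-NOT complex, which shorten poly(A) tails and so speed the decay of mRNA. CDKN1A (p21) and CDKN1B (p27) bind and inhibit the CDKs that drive cells from G1 into S phase, and the GADD45 proteins are small stress-induced partners of PCNA, CDK1 and the kinase MAP3K4. FOXO3 is a forkhead factor that AKT keeps out of the nucleus. *CDKN1B* is a textbook FOXO target, *BTG1* is a known FOXO3 target in erythroid progenitors, and *BTG2*, *CDKN1A* and *GADD45A* are known targets of p53, of which K562 has no functional copy. The question was whether the rescues by a MYB that cannot be SUMOylated and by a MYB that cannot bind SUMO left these genes at different levels.

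Expression was given by the authors as FPKM (fragments scaled for transcript length and for the mapped fragments of the library), so levels can be set side by side between genes. FPKM summed to 579920 to 633662 per library, and the depth in reads is unknown. The 8 erythroid markers reported here were present in all libraries, from 17.6 FPKM for *KLF1* to 1160 FPKM for *HBG2*, and summed to 1759 to 1880 FPKM under 2KR-MYB and 1987 to 2385 FPKM with ANAA-MYB. They did not differ as a set in 1 direction. *GATA1*, *KLF1* and *TFRC* were lower with 2KR-MYB past the threshold used below, and the others did not pass, with log2 differences of 0.30 for *TAL1*, 0.23 for *HBE1*, 0.077 for *HBZ*, -0.24 for *HBG2* and -0.30 for *HBG1*. Of 5 reported markers of other cell types, *MS4A1* was listed at 0 throughout, *CD3E* and *ALB* stayed under 1 FPKM, and the epithelial marker *EPCAM* lay between 43.1 and 50.2 FPKM. *COL1A1*, a fibroblast marker, was at 1.34 to 2.86 FPKM under 2KR-MYB and 0.411 to 0.648 FPKM with ANAA-MYB (adjusted p = 0.0061). The 5 markers summed to 49.7 to 53.1 FPKM under 2KR-MYB and 44.4 to 46.3 FPKM with ANAA-MYB. Nearly all of this sum was *EPCAM*, which did not pass (log2 difference 0.15, adjusted p = 0.043). The part of these marker differences in the results below was not tested. *MYB* (ENSG00000118513), which the rescue transcripts share, measured 69.0, 61.2 and 67.5 FPKM under 2KR-MYB and 53.6, 55.3 and 62.0 FPKM with ANAA-MYB, with a log2 difference of 0.21 (adjusted p = 0.062). Throughout, a log2 difference is the mean log2(FPKM + 1) of the 2KR-MYB libraries less that of the ANAA-MYB libraries, a scale that understates changes of low genes, tested by limma with Benjamini-Hochberg adjustment over the 12634 genes that averaged 1 FPKM or more. Every adjusted p here is from this test, and the threshold was an adjusted p under 0.01.

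Of the 10 genes, all of them tested, 6 passed the threshold. *BTG1*, *BTG2*, *CDKN1A*, *CDKN1B* and *FOXO3* were higher with 2KR-MYB, *BTG3* was lower, and *TOB1*, *TOB2*, *GADD45A* and *GADD45B* did not pass. Over all tested genes, 13.0% passed in either direction, 5.57% higher and 7.42% lower with 2KR-MYB. The FPKM ranges of the rescues did not overlap in 7 of the 10 genes, beside 44.9% of all tested genes. The median log2 difference was 0.32 over the 10 genes and -0.015 over all tested genes. Since the 10 genes were chosen with earlier results of these data known, these shares and medians are a description and do not test the set. Among all genes past the threshold 42.9% were higher with 2KR-MYB, and 54.5% after upper quartile scaling; the 6 members kept their directions and their calls under that scaling. The number of members past the threshold was 2 without the first or the second 2KR-MYB replicate and 4, *GADD45A* among them, without the third. It was 3 without any 1 of the ANAA-MYB replicates and 3 with the replicate number as a block. *BTG2* and *CDKN1A* passed in every one of these, and *BTG3*, *CDKN1B* and *FOXO3* in none. Since cells were pooled in each library, fewer cells expressing a gene and less RNA per cell cannot be told apart.

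**Figure D1:**
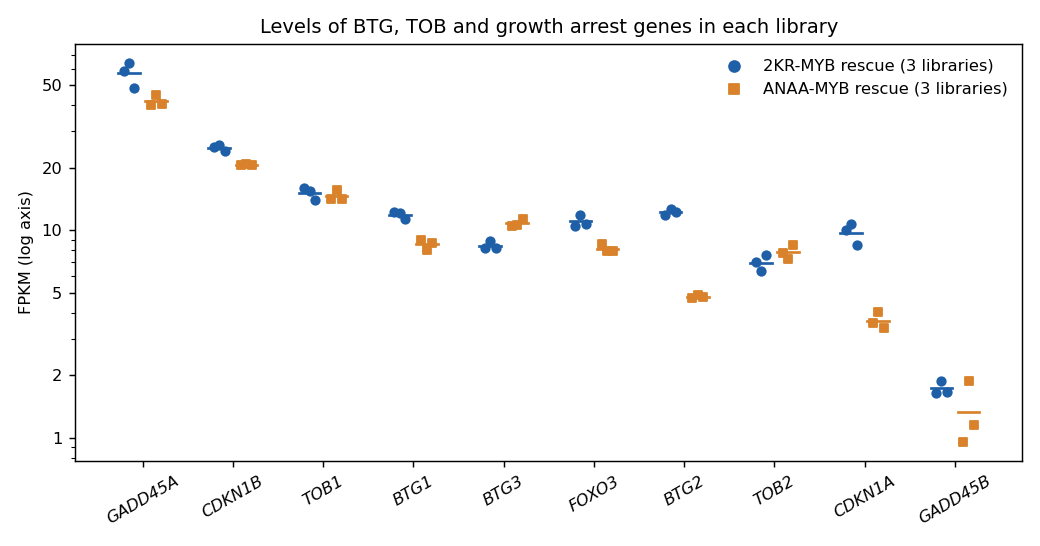
FPKM (log axis) of the 10 genes in each of the 6 libraries, ordered by mean level; circles are 2KR-MYB libraries, squares ANAA-MYB libraries and bars the group means. *BTG2* and *CDKN1A* show the widest gaps between the rescues, *BTG3* is lower with 2KR-MYB, and the libraries of *TOB1*, *TOB2* and *GADD45B* overlap.

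The promoters of the 2 genes that differed most (*BTG2* and *CDKN1A*) and of *BTG1* and *BTG3*, members of 1 family that differed in opposite directions, are shown as the 250 bases before the annotated start, in RefSeq on GRCh38.p14, each 5′ to 3′ on the strand of its gene. *BTG2* is at chr1:203305269-203305518 (plus strand), *CDKN1A* at chr6:36678464-36678713 (plus, inside the span of the gene, which other starts extend upstream), *BTG1* at chr12:92145847-92146096 (minus) and *BTG3* at chr21:17612902-17613151 (minus). Capitals mark matches, on either strand, to the core of the MYB recognition element (AACNG), the TATA box (TATAAA) or the CCAAT box (CCAAT).
BTG2: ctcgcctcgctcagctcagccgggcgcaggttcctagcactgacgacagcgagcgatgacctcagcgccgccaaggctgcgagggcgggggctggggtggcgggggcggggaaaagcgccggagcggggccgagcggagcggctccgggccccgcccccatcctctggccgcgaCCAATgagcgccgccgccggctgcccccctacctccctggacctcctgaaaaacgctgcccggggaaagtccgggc
CDKN1A: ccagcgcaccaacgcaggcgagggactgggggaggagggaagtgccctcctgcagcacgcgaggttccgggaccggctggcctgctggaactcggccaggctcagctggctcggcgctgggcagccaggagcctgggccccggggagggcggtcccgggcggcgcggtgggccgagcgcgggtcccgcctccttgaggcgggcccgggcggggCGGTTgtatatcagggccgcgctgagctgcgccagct
BTG1: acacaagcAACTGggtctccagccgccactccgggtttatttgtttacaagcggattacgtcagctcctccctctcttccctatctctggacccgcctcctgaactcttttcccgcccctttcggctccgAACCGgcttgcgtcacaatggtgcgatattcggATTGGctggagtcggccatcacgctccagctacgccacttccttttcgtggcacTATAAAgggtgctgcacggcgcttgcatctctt
BTG3: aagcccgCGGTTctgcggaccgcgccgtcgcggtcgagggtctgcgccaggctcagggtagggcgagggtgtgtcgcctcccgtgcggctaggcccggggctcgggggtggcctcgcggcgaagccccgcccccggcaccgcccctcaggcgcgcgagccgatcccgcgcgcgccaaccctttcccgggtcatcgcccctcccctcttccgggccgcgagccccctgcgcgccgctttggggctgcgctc

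*BTG1* held 2 MYB cores, a TATA box and a CCAAT box on the opposite strand, *BTG2* a CCAAT box and no AACNG, and *CDKN1A* and *BTG3* 1 AACNG each, on the opposite strand. The table held 13 windows for 9 of the 10 genes, and *GADD45A* had none. AACNG was found in 8 of these 13 windows and in 70.6% of all 35116 windows, CCAAT in 5 of 13 and 32.0%, and TATAAA in 2 of 13 and 10.7%. These letter matches are a description and no binding was measured.

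In the BTG/TOB family, *BTG2* and *BTG1* were higher and *BTG3* was lower with 2KR-MYB than with ANAA-MYB, and the TOB genes did not pass. *BTG2* (ENSG00000159388, chromosome 1, 203305519 to 203309602), an early response gene that slows the passage from G1 to S, was at 11.8, 12.6 and 12.3 FPKM under 2KR-MYB and at 4.70, 4.89 and 4.76 FPKM with ANAA-MYB. The 6 values formed 2 tight and separate groups, 12.2 ± 0.402 against 4.78 ± 0.0996 FPKM (SD, n = 3 each), a 2.55-fold difference of means. The log2 difference was 1.19 (standard error 0.059, adjusted p = 1.8e-05), and it stayed past the threshold under all 15 alternatives, at 1.17 to 1.35. *BTG1* (ENSG00000133639, chromosome 12, 92140278 to 92145846), a gene recurrently altered in lymphoid malignancies, stood at 12.2, 12.1 and 11.4 FPKM under 2KR-MYB and 9.01, 8.03 and 8.71 FPKM with ANAA-MYB. All 2KR-MYB libraries of *BTG1* lay above all ANAA-MYB libraries, by 1.39-fold on average. Its log2 difference was 0.43 (standard error 0.063, adjusted p = 0.0022). Without the first or the second 2KR-MYB replicate the adjusted p rose to 0.011.

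*BTG3* (ENSG00000154640, chromosome 21, 17593653 to 17612901), also called ANA, was the only member lower with 2KR-MYB past the threshold. Its levels were 8.23, 8.84 and 8.24 FPKM under 2KR-MYB and 10.5, 10.6 and 11.4 FPKM with ANAA-MYB. The ranges were apart and ANAA-MYB was 1.28-fold higher on average. The log2 difference was -0.33 (standard error 0.062, adjusted p = 0.0067), and the adjusted p rose to between 0.015 and 0.027 with any 1 library left out. *BTG3-AS1* (chromosome 21, 17611686 to 17614114), the antisense RNA that overlaps the start of *BTG3* and was picked after its values were seen, differed in the opposite direction. It was at 2.05, 2.35 and 2.19 FPKM under 2KR-MYB and 0.744, 0.419 and 1.02 FPKM with ANAA-MYB (log2 difference 0.90, adjusted p = 0.0029). *BTG3-AS1* missed the threshold without the first or the second 2KR-MYB replicate (adjusted p = 0.011 and 0.014). It also missed with the replicate number as a block (0.010) or with no filter on low values (0.019). With pseudocounts of 0.1 and 0.01 the *BTG3-AS1* difference was 1.54 and 1.67. The library kit was strand-specific, but whether strand was used in the authors' quantification is not given in the sources used here, so reads of this pair may have been shared.

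*TOB1* (ENSG00000141232, chromosome 17, 50862223 to 50867978), whose protein also binds poly(A)-binding protein and SMAD factors, was at 16.0, 15.5 and 14.0 FPKM under 2KR-MYB and 14.2, 15.6 and 14.2 FPKM with ANAA-MYB. The ANAA-MYB values lay within the range of the 2KR-MYB values, and the log2 difference of 0.047 had a 95% confidence interval from -0.11 to 0.21 (adjusted p = 0.64). *TOB2* (ENSG00000183864, chromosome 22, 41433494 to 41446801), its close relative, was at 7.00, 6.39 and 7.59 FPKM under 2KR-MYB and 7.76, 7.30 and 8.48 FPKM with ANAA-MYB. Its log2 difference of -0.15 had an interval from -0.34 to 0.040 (adjusted p = 0.22). A pseudogene of *TOB2*, *TOB2P1*, was listed at 3.87 to 4.56 FPKM over the 6 libraries, so reads of the 2 genes may have been divided.

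**Figure D2:**
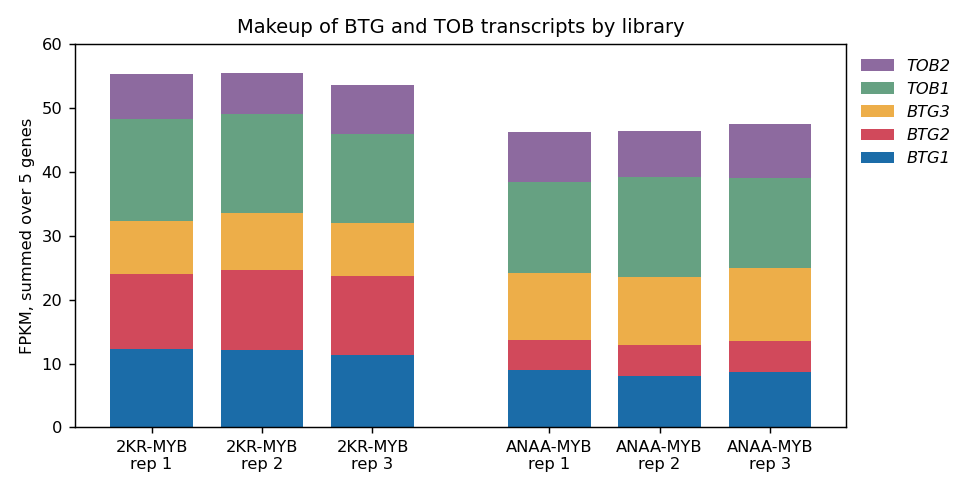
FPKM of the 5 BTG and TOB genes stacked for each library, so that the height of a bar is their sum on a linear axis from 0. The sum is 53.5 to 55.4 FPKM under 2KR-MYB and 46.2 to 47.5 FPKM with ANAA-MYB, and the *BTG2* layer is thicker and the *BTG3* layer thinner with 2KR-MYB.

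The makeup of the family differed accordingly. Summed over the 5 genes, the libraries held 55.2, 55.4 and 53.5 FPKM under 2KR-MYB and 46.2, 46.4 and 47.5 FPKM with ANAA-MYB. *BTG2* made up 21.3% to 22.9% of this sum with 2KR-MYB and 10.0% to 10.5% with ANAA-MYB, while *BTG3* made up 14.9% to 16.0% and 22.8% to 24.0%. The ratio of *BTG2* to *BTG3* was therefore 1.42 to 1.49 with 2KR-MYB and 0.417 to 0.463 with ANAA-MYB. *TOB1* had the largest share in every library, from 26.2% to 33.6%. These sums and ratios follow from the levels above and carry no test of their own.

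Both CDK inhibitors were higher with 2KR-MYB, by very different factors. *CDKN1A* (ENSG00000124762, chromosome 6, 36676463 to 36687332) was at 10.0, 10.7 and 8.51 FPKM under 2KR-MYB and 3.59, 4.03 and 3.37 FPKM with ANAA-MYB. Every 2KR-MYB library was more than 4 FPKM above every ANAA-MYB library, and the means of 9.73 ± 1.10 and 3.66 ± 0.334 FPKM (SD, n = 3 each) differed 2.66-fold. The log2 difference was 1.20 (standard error 0.095, adjusted p = 0.00014), past the threshold under all 15 alternatives at 1.14 to 1.40. *CDKN1B* (ENSG00000111276, chromosome 12, 12717368 to 12722369) was at 25.2, 25.7 and 24.1 FPKM under 2KR-MYB and 20.7, 20.8 and 20.7 FPKM with ANAA-MYB. The ANAA-MYB values were nearly equal and lay below all 2KR-MYB values. The difference was 1.20-fold, with a log2 difference of 0.26 (standard error 0.047, adjusted p = 0.0061), and with any 1 library left out the adjusted p was 0.010 to 0.028. *CDKN1A* transcripts were thus 0.353 to 0.415 times as abundant as those of *CDKN1B* with 2KR-MYB and 0.163 to 0.194 times with ANAA-MYB.

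*GADD45A* (ENSG00000116717, chromosome 1, 67685201 to 67688334) was the most abundant of the 10 genes in every library. It stood at 58.6, 64.0 and 48.3 FPKM under 2KR-MYB and 40.0, 45.0 and 40.7 FPKM with ANAA-MYB. The ranges did not overlap, but the third 2KR-MYB library lay near the highest ANAA-MYB library. The log2 difference of 0.43 (standard error 0.099) missed the threshold (adjusted p = 0.016). It passed without that library (0.54, adjusted p = 0.0025) and after quantile normalization (0.48, adjusted p = 0.0096). *GADD45B* (ENSG00000099860, chromosome 19, 2476127 to 2478257) was the least abundant member, at 1.65, 1.88 and 1.67 FPKM under 2KR-MYB and 0.957, 1.89 and 1.16 FPKM with ANAA-MYB. Its second ANAA-MYB library was as high as any 2KR-MYB library, and the log2 difference of 0.24 had a 95% confidence interval from -0.10 to 0.59 (adjusted p = 0.27). It was 0.13 without the first and 0.41 without the second ANAA-MYB replicate, and 0.40 and 0.43 with pseudocounts of 0.1 and 0.01, and passed under none of these.

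*FOXO3* (ENSG00000118689, chromosome 6, 108559825 to 108684774) was at 10.5, 11.9 and 10.7 FPKM under 2KR-MYB and 8.58, 7.94 and 7.96 FPKM with ANAA-MYB. All 2KR-MYB libraries were above all ANAA-MYB libraries, 1.35-fold on average, with a log2 difference of 0.39 (standard error 0.067, adjusted p = 0.0043). With any 1 library left out the adjusted p was 0.010 to 0.019. Its near copy *FOXO3B* on chromosome 17, which can share reads with it, was at 1.98, 2.33 and 2.23 FPKM under 2KR-MYB and 2.44, 2.46 and 2.49 FPKM with ANAA-MYB. That is the opposite order, at a log2 difference of -0.13 (adjusted p = 0.32). For each of the 7 members with separate ranges, exact permutation of the 6 FPKM values (two-sided) gave p = 0.1, the smallest that 3 libraries against 3 allow.

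**Figure D3:**
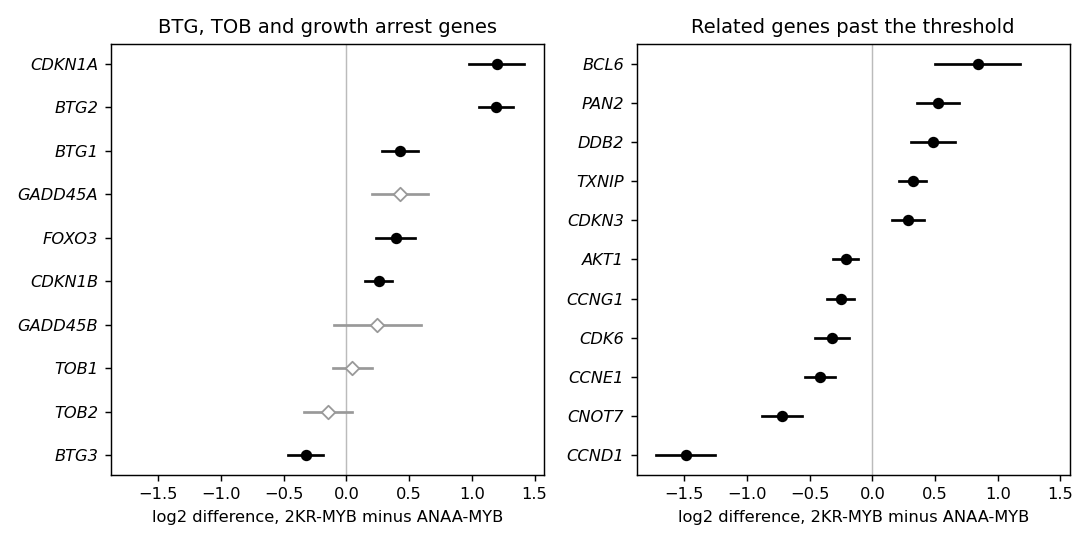
Log2 difference (mean log2(FPKM + 1) with 2KR-MYB less that with ANAA-MYB) of the 10 genes (left) and of the related genes past the threshold (right); lines are 95% confidence intervals from limma, black circles passed an adjusted p of 0.01 and open diamonds did not. *CDKN1A* and *BTG2* lead at 1.20 and 1.19, and *CCND1* is the lowest at -1.49.

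The replicate spread differed widely among the members. The residual standard deviation on the log2 scale was 0.031 for *CDKN1B* and 0.036 for *BTG2*, smaller than in all but 3.4% and 5.5% of tested genes, and the median of all tested genes was 0.088. At the other end *GADD45B* (0.21), *GADD45A* (0.16) and *CDKN1A* (0.13) were at the 91.8, 83.3 and 74.8 percentiles. By level, *GADD45A*, *CDKN1B* and *TOB1* held ranks 1, 2 and 3 in both rescues, with no overlap between neighbours in that order. With 2KR-MYB *BTG2*, *BTG1*, *FOXO3*, *CDKN1A* and *BTG3* followed, and the ranges of each gene and the next overlapped along this run. With ANAA-MYB *BTG2* and *CDKN1A* held ranks 8 and 9, below *BTG3*, *BTG1*, *FOXO3* and *TOB2*, with no overlap between *TOB2*, *BTG2* and *CDKN1A*.

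Since each rescue was 1 clone, every member was also set beside its neighbours, the 5 nearest tested genes on each side by RefSeq position on GRCh38. The median log2 difference of the 10 neighbours lay between -0.090 and 0.093 for all 10 members. Around *BTG2* it was -0.090, with 7 of 10 neighbours below 0, and the 2 that passed the threshold were lower with 2KR-MYB, opposite to *BTG2*. Around *CDKN1A* it was -0.032, and 1 neighbour passed, higher with 2KR-MYB. No neighbour of *BTG1*, *CDKN1B* or *FOXO3* passed. *BTG1-DT*, which lies next to *BTG1*, had a log2 difference of 0.43 (adjusted p = 0.067), close to that of *BTG1*, and 4 of the 10 neighbours of *BTG1* were below 0. The neighbours of *BTG3* were the most mixed, with 2 higher, *BTG3-AS1* among them, and 3 lower past the threshold.

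**Figure D4:**
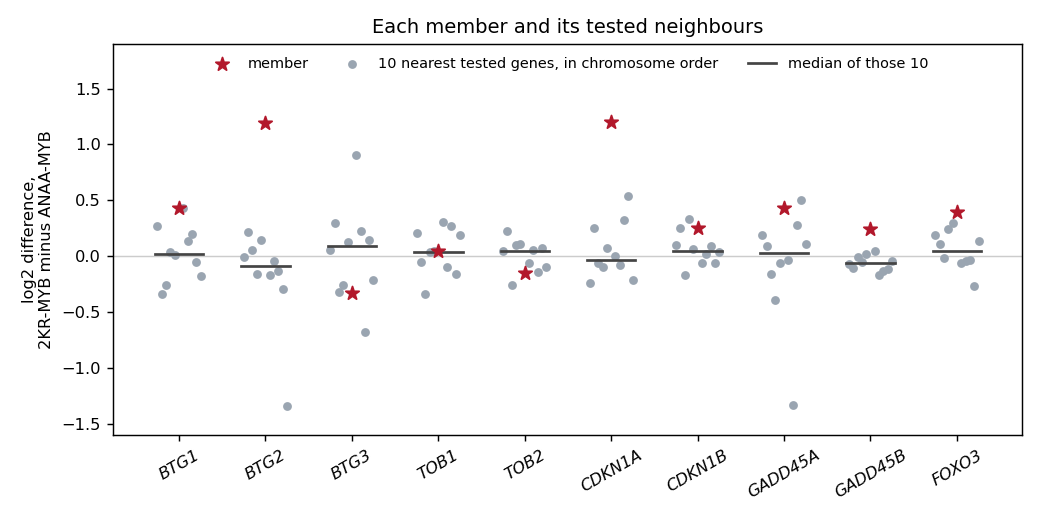
Log2 difference, 2KR-MYB minus ANAA-MYB, of each member (star) and of its 10 nearest tested genes (dots, in chromosome order from left to right), with the median of those 10 as a bar. *BTG2* and *CDKN1A* stand above all 10 of their neighbours, whose medians are -0.090 and -0.032.

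The genes around these brakes were read from 6 lists of 85 related genes. *SOD2* was not matched, 71 were tested, and 11 of these passed (15.5%, beside 13.0% of all tested genes), 5 higher and 6 lower with 2KR-MYB. After upper quartile scaling 9 were higher and 4 lower, and after quantile normalization 8 and 4. In the CCR4-NOT and poly(A) list 2 of 15 tested genes passed (13.3%). *CNOT7*, the deadenylase that BTG and TOB proteins bind, was at 54.8, 56.3 and 61.7 FPKM under 2KR-MYB and 88.0, 97.5 and 102 FPKM with ANAA-MYB (log2 difference -0.72, adjusted p = 0.00032). It lies on 8p among genes lower with 2KR-MYB as a group: its 10 neighbours had a median of -0.58, with 6 lower and 1 higher past the threshold. The part of that neighbourhood in the *CNOT7* difference was not tested. Its paralog *CNOT8*, the other BTG-binding deadenylase, had a log2 difference of -0.040 (adjusted p = 0.64). *PAN2*, the catalytic subunit of a second deadenylase, was at 28.5 ± 2.35 FPKM under 2KR-MYB and 19.5 ± 1.14 FPKM with ANAA-MYB (SD, n = 3 each, log2 difference 0.52, adjusted p = 0.0017).

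Among the G1 cyclins, CDKs and pocket proteins 3 of 19 passed (15.8%, beside 13.0% of all tested genes), all lower with 2KR-MYB. Of these 19 genes, 8 had a log2 difference above 0. *CCND1* (cyclin D1) was at 0.586, 0.409 and 0.378 FPKM under 2KR-MYB and 2.97, 3.20 and 3.08 FPKM with ANAA-MYB. It was low in both rescues but fully separate (log2 difference -1.49, adjusted p = 7.6e-05), and the difference was -2.53 and -2.75 with pseudocounts of 0.1 and 0.01. *CCNE1*, the cyclin of CDK2 at the start of S phase, was at 16.9 ± 0.267 against 22.9 ± 1.06 FPKM (SD, n = 3 each, log2 difference -0.42, adjusted p = 0.0011). *CDK6*, a partner of the D cyclins, had a log2 difference of -0.32 (adjusted p = 0.0056). The more abundant D cyclin *CCND3* stood at 115 to 127 FPKM over the 6 libraries, with a log2 difference of 0.015. Of the other CDK inhibitors, *CDKN2A* and *CDKN2B* were listed at 0 in all libraries, and 1 of 4 tested genes passed (25.0%). This was *CDKN3*, a phosphatase that acts on CDKs (log2 difference 0.29, adjusted p = 0.0075).

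In the DNA damage and p53 list 2 of 14 tested genes passed (14.3%, beside 13.0% of all tested genes), in opposite directions. *DDB2*, a sensor of ultraviolet damage, had a log2 difference of 0.48 (adjusted p = 0.0031) and *CCNG1* one of -0.25 (adjusted p = 0.0065). *MDM2*, the best known p53 target, had a log2 difference of -0.15 (adjusted p = 0.22). None of the 7 tested genes in the list of GADD45 partners passed in limma, beside 13.0% of all tested genes. An unadjusted p under 0.05 was found for 3 of the 7. The share of all tested genes under that cutoff was not counted, so the 3 are not read as a result about this list. The smallest adjusted p in that list was 0.025, for *GADD45GIP1*. *PCNA*, also a GADD45 partner, was counted among the G1 genes and did not pass (log2 difference -0.225, adjusted p = 0.013). In the FOXO list 3 of 12 tested genes passed (25.0%). *TXNIP*, an inhibitor of thioredoxin, was at 131 ± 5.03 against 105 ± 2.43 FPKM (SD, n = 3 each, log2 difference 0.32, adjusted p = 0.0021). The repressor *BCL6* was at 2.74, 3.21 and 3.56 FPKM under 2KR-MYB and 0.962, 1.82 and 1.26 FPKM with ANAA-MYB (log2 difference 0.84, adjusted p = 0.0047, and 1.27 with a pseudocount of 0.01). *AKT1*, the kinase gene upstream of FOXO3, had a log2 difference of -0.21 (adjusted p = 0.0080). With 1 library left out in turn, *CCND1*, *CNOT7*, *CCNE1* and *PAN2* always passed. *TXNIP* missed without the second 2KR-MYB replicate (adjusted p = 0.011), *DDB2* without that library or ANAA-MYB replicates 2 or 3 (0.012 to 0.014), *BCL6* without any library but the second ANAA-MYB replicate (0.011 to 0.020), *CDK6* without any but the first ANAA-MYB replicate (0.010 to 0.025), and *CCNG1*, *CDKN3* and *AKT1* without any 1 library (0.013 to 0.034). *CCNG1* and *AKT1* also missed it after upper quartile scaling (0.014 and 0.017) and after quantile normalization (0.018 and 0.019). With the replicate number as a block *DDB2*, *CDK6*, *CCNG1*, *CDKN3* and *AKT1* missed it (0.011 to 0.019). With no filter on low values *PAN2*, *DDB2*, *BCL6*, *CDK6*, *CCNG1* and *CDKN3* missed it (0.012 to 0.032).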

How the data were processed

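Libraries of poly(A) RNA were made with a strand-specific kit and read as paired ends. The submitters' processing notes name bcl2fastq 2.18.0.12, Trimmomatic 0.36, TopHat2 2.1.1, Cufflinks and Cuffdiff 2.2.1 with GRCh38. The gene annotation is not given in the sources used here. The authors deposited FPKM values per gene and replicate. Of 18 columns, the 12 that match no sample analysed here were not used. Low values did not fall on common steps (at most 6.75% of ratios of values under 0.5 FPKM fell in 1 bin), so no reads were recovered.

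Of the 58288 identifiers, 55854 matched a symbol. Genes that averaged 1 FPKM or more entered the test, which was limma 3.58.1 (R 4.3.3) applied to log2(FPKM + 1) (empirical Bayes with trend, Benjamini-Hochberg adjustment, threshold 0.01). Single genes were also compared by exact permutation of FPKM (scipy 1.17.1). The fit was tested on simulated data with 200 changed genes. It recovered 39.0% of them at a log2 change of 0.5 and 89.0% at a change of 1.0. In the data 1642 of 12634 tested genes passed, more than were changed in the simulation, so these rates need not hold for this comparison. A gene that did not pass may still differ. Figures used Python 3.11.15 and matplotlib 3.10.9. The replicates are labelled biological, but come from 1 clone per rescue, so p-values measure the spread within a clone.

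The members and lists were chosen with earlier results of these data known. Named genes are all members, *MYB* and up to 6 genes per list past the threshold by smallest adjusted p. Other names (*CNOT8*, *CCND3*, *CDKN2A*, *CDKN2B*, *MDM2*, *GADD45GIP1*, *PCNA*, *SOD2*, *BTG1-DT*, *BTG3-AS1*, *FOXO3B*, *TOB2P1*) were added after their values were seen. Of the cell type markers, 1 erythroid marker and 1 of another cell type are not reported here, for reasons unrelated to their values, and the marker sums leave them out. Alternatives were pseudocounts of 0.1 and 0.01, no filter, a filter at 5 FPKM, a robust variance prior, quantile normalization, scaling to the upper quartile, a replicate block, each library left out, and a threshold of 0.05.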

Additional observations from a re-analysis of the deposited data

How the results depend on the processing

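No member changed direction under any of the 15 alternatives (14 for *GADD45B*, which a mean of at least 5 FPKM removes), and *BTG2* and *CDKN1A* passed under each. With no filter on low values 942 of all tested genes and 5 related genes passed, and *BTG3* (-0.33, adjusted p = 0.018) and *FOXO3* (0.39, adjusted p = 0.016) missed the threshold with unchanged log2 differences. With the replicate number as a block, 1089 tested genes, 3 members and 6 related genes passed, and *BTG3* (-0.33, adjusted p = 0.021), *CDKN1B* (0.26, adjusted p = 0.016) and *FOXO3* (0.39, adjusted p = 0.016) missed it. Same-numbered libraries of the rescues did not deviate together (correlations of -0.052, -0.035 and -0.0026 across genes), so the numbers were not taken to pair them. At a threshold of 0.05, 3402 tested genes, 23 related genes and *GADD45A* (0.43) passed, and after quantile normalization *GADD45A* did too (0.48). With 1 library left out, which lowers the number of samples, 852 to 1204 tested genes, 2 to 4 members and 4 to 8 related genes passed, and log2 differences were 0.39 to 0.46 (*BTG1*), -0.36 to -0.29 (*BTG3*), 0.24 to 0.28 (*CDKN1B*), 0.34 to 0.54 (*GADD45A*), 0.34 to 0.42 (*FOXO3*), 0.13 to 0.41 (*GADD45B*), 0.010 to 0.10 (*TOB1*) and -0.20 to -0.092 (*TOB2*). The causes were not tested.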
